A study of Homo sapiens with 6 samples.

Results

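Hepcidin (HAMP) and 9 other genes that control, carry, import, export or store iron were followed in HepG2 cells after knockdown of PAIP1, the poly(A)-binding protein-interacting protein 1, a regulator of translation and of mRNA decay. The 10 genes were HAMP, TFR2, HFE, TMPRSS6, SLC40A1, FTL, FTH1, TF, TFRC and SLC11A2. They were taken by symbol from a table of 30987 genes, in which each of these symbols stood on 1 row, and all 10 passed the filter on low counts. HepG2 is a cell line grown out of a human liver cancer. In the siPAIP1 group the cells were transfected with siRNA3 against PAIP1, and in the Ctrl group with a non-targeting siRNA, both with a lipid reagent. Each group had 3 libraries of poly(A) RNA from cells harvested 48 h after transfection, which the study calls biological replicates. The sequencing therefore rests on 1 siRNA in 1 cell line, with no gut, red cell or macrophage compartment, and on RNA alone, since neither iron nor protein was measured in these libraries. The knockdown was seen in the target gene itself: PAIP1 stood at 26.83, 22.96 and 26.01 FPKM in Ctrl replicates 1 to 3 and at 8.29, 6.54 and 5.47 FPKM in siPAIP1 replicates 1 to 3. FPKM, fragments scaled by gene length and by library size, is used for levels below.

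Hepcidin is a peptide hormone made mainly by hepatocytes. It binds ferroportin (SLC40A1), the exporter through which iron leaves cells, and causes its removal from the cell surface, so that less iron reaches the blood. Hepatocytes set the output of HAMP from 2 main inputs, the BMP-SMAD pathway, which reads iron through HFE, TFR2 and hemojuvelin and is held back by the protease TMPRSS6, and the IL-6 and STAT3 pathway of inflammation. Inside cells, iron regulatory proteins bind hairpins in mRNAs, the iron-responsive elements. Bound near the 5′ end they block translation of ferritin and ferroportin, and bound in the 3′ untranslated region (UTR) they protect the mRNA of the transferrin receptor TFRC.

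These hairpins are shown because they group 4 of the 10 genes by a feature that does not depend on their measured levels. A pattern of an unpaired C, 5 pairs of upper stem and the loop CAGTGN (the last base not G) was searched in GENCODE release 44 on GRCh38. At most 1 wobble pair was allowed, and at least 4 of 6 pairs below the bulge were required. It matched the 5′ UTR of 7 (0.0355%) and the 3′ UTR of 10 (0.0508%) of 19701 canonical protein-coding transcripts. Among the 10 genes it matched once in the first exon of FTL, FTH1 and SLC40A1 and 4 times in the last exon of TFRC. The matches are printed as 29 bases, 5′ to 3′ on the strand of the gene, with the loop in capitals. They lie at chr19:48965335-48965363 (+) in FTL, chr11:61967574-61967602 (−) in FTH1 and chr2:189580661-189580689 (−) in SLC40A1, and in TFRC, all on the − strand, at chr3:196050979-196051007, chr3:196050575-196050603, chr3:196050510-196050538 and chr3:196050463-196050491.
FTL: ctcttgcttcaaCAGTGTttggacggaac
FTH1: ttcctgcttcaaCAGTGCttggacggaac
SLC40A1: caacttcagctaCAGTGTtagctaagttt
TFRC 1: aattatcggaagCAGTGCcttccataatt
TFRC 2: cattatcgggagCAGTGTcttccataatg
TFRC 3: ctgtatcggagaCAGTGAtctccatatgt
TFRC 4: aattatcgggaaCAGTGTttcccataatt
The FTL and FTH1 hairpins share 26 of 29 bases. No match under this pattern was found in HAMP, TFR2, HFE, TMPRSS6, TF or SLC11A2. The pattern is strict in its loop and pairing, so the lack of a match does not show that a gene has no such element.

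**Figure D1:**
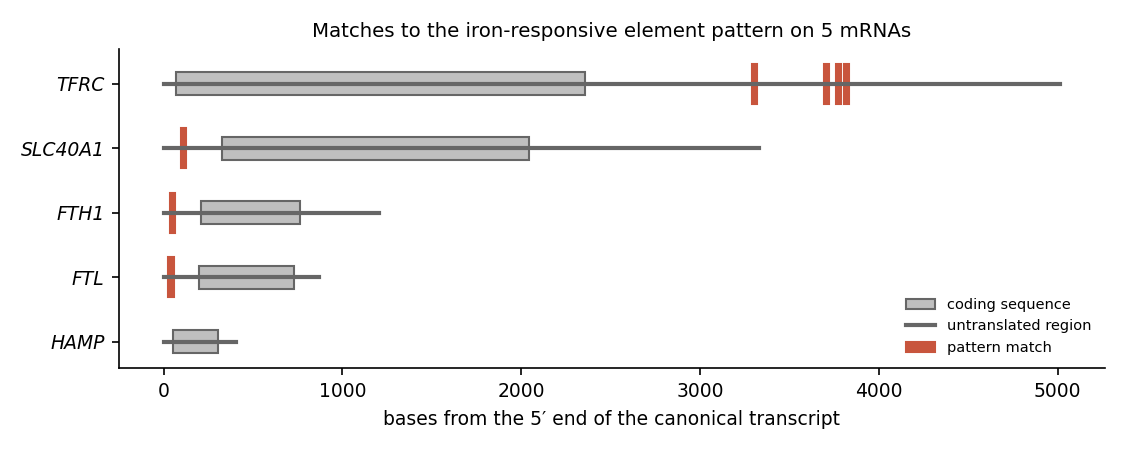
Position of the hairpin matches on the canonical transcripts of TFRC, SLC40A1, FTH1, FTL and HAMP, in bases from the 5′ end; boxes are coding sequence, lines untranslated regions and red bars the matches. The matches of SLC40A1, FTH1 and FTL lie before the coding sequence, the 4 of TFRC lie after it, and HAMP has none.

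The 10 genes spanned from 0.457 FPKM for TMPRSS6 to 7879 FPKM for FTL in the mean of the Ctrl libraries. FTL, the light chain of ferritin, ranked 10 among all genes by mean FPKM in Ctrl and 11 in siPAIP1, and alone took 0.705% to 0.799% of all counts in Ctrl and 0.445% to 0.505% in siPAIP1. In Ctrl the levels in FPKM fell in the order FTL, FTH1, TF, SLC40A1, HAMP, TFRC, SLC11A2, TFR2, HFE and TMPRSS6. Only TFR2 and HFE overlapped among neighbours in this order. In siPAIP1, HAMP, at a mean of 12.6 FPKM, stood below TFRC at 33.5 FPKM, and SLC40A1, at 31.5 FPKM, overlapped TFRC.

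**Figure D2:**
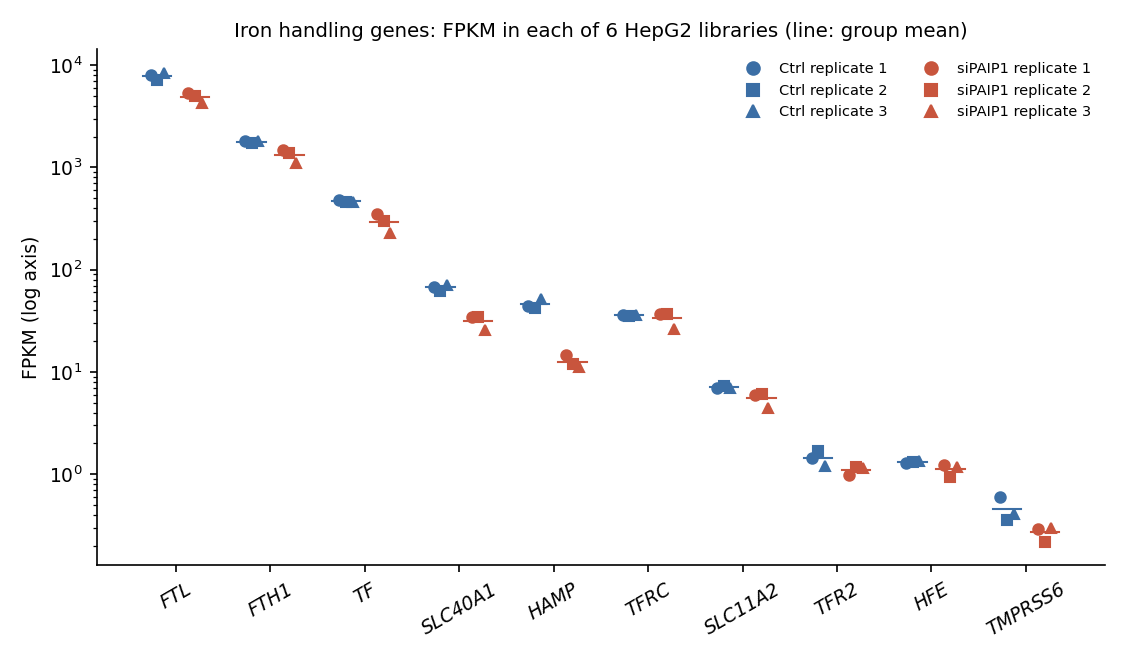
FPKM of the 10 genes (log axis) in each of the 6 libraries, blue for Ctrl and red for siPAIP1, with the replicate given by the symbol and the group mean by a line. The genes run from FTL, near 7879 FPKM in Ctrl, to TMPRSS6, under 1 FPKM, and HAMP and SLC40A1 show the widest distance between the groups.

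With edgeR's quasi-likelihood test and Benjamini-Hochberg adjustment over 15528 genes, 6 of the 10 genes were lower in siPAIP1 at an adjusted p under 0.05, 0 were higher, also under each of 16 alternatives with DESeq2 and limma among them, and 4 were not called. Over all genes tested, 6.2% were called lower and 5.68% higher. HAMP and SLC40A1 also changed at least 2-fold, the study's added threshold for differentially expressed genes, which 1.1% of all genes passed downward. All 10 fitted log2 fold changes were below 0, with a median of -0.59, against a median of 0.03 over all genes tested. In CPM, counts scaled by library size and TMM factors but not by length, every siPAIP1 library was below every Ctrl library for 9 of the 10 genes, TFR2 being the exception, where 17.6% of all genes had such a gap downward. The count of genes called lower was 3 without Ctrl replicate 1, Ctrl replicate 2, Ctrl replicate 3 or siPAIP1 replicate 2, 5 without siPAIP1 replicate 1 and 9 without siPAIP1 replicate 3. Calls over the whole table also moved from fit to fit, with 290 genes called lower without Ctrl replicate 1 against 963 with all 6 libraries. A gain or loss of calls among the 10 genes is therefore not particular to them. HAMP, SLC40A1 and FTL were called in each of the 6 fits with 1 library left out.

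**Figure D3:**
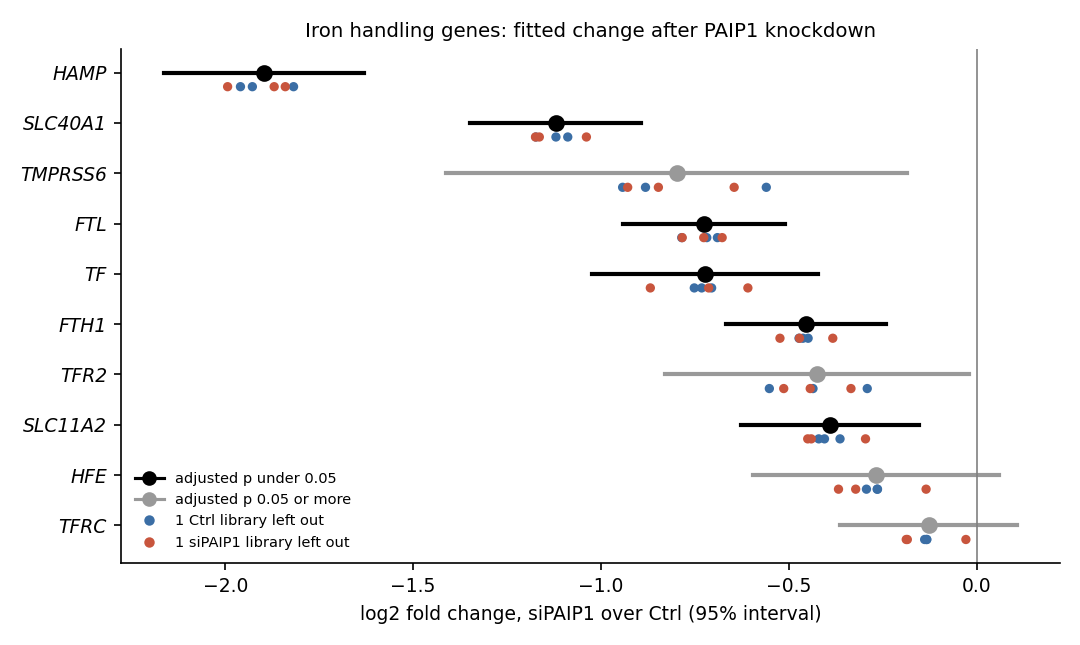
Fitted log2 fold change of siPAIP1 over Ctrl for each gene with its 95% interval from edgeR (black, adjusted p under 0.05; gray, 0.05 or more), and below it in small points the value with 1 library left out (blue, Ctrl; red, siPAIP1). HAMP at -1.90 and SLC40A1 at -1.12 lie farthest from 0, the interval of TMPRSS6 is the widest, and those of HFE and TFRC include 0.

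The libraries held 29313211 to 34659866 counts. siPAIP1 replicate 3 stood apart from the rest: chi-square per degree of freedom over genes was 71.1 and 78.0 between it and the other siPAIP1 replicates, 3.02 between those other replicates, and 5.19 to 15.6 among Ctrl replicates. The divisor behind its FPKM exceeded its count total, relative to Ctrl replicate 1, by 11.3%, and that of Ctrl replicate 2 by 3.38%, so FPKM reads low in these libraries where CPM does not. Of 9 liver markers, 8 had a log2 fold change below 0, with a median over the 9 of -0.45, and 4 fell (ALB, APOA1, TTR and SERPINA1). This was 44.4% called lower, against 6.2% over all genes tested. The 9 summed to 8869 to 9374 CPM per Ctrl library and 5922 to 7513 CPM per siPAIP1 library. Markers of other cells were near 0: those with a row summed to 0.117 to 0.656 CPM per library for macrophages, 0.270 to 0.796 for erythroid cells, 0.459 to 1.36 for fibroblasts and stellate cells and 1.43 to 2.65 for endothelial cells, and PTPRC was at 0 in all siPAIP1 libraries. Fewer cells of a kind and less RNA per cell cannot be told apart in such bulk libraries, and the part of the liver markers' fall in the results below was not tested.

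HAMP had the largest fall of the 10 genes. Its level was 44.25, 41.91 and 52.01 FPKM in Ctrl replicates 1 to 3, and 14.52, 11.99 and 11.31 FPKM in siPAIP1 replicates 1 to 3. The groups were far apart, the lowest Ctrl library standing well above the highest siPAIP1 library. The mean went from 41.0 ± 4.14 CPM (SD, n = 3) in Ctrl to 11.0 ± 1.19 CPM (SD, n = 3) in siPAIP1, or 26.9% of Ctrl, with a log2 fold change of -1.90 (SE 0.11, 95% interval -2.16 to -1.63, adjusted p = 0.00085 by edgeR). Of the 15528 genes tested, 21 had a lower log2 fold change and 4 a smaller p. Leaving out 1 library at a time gave -1.99 to -1.82, and the call held under all 16 alternatives. HAMP belongs to the immune and inflammatory genes that the study picked from these same libraries, so its fall is not independent evidence of their direction. The study also reports a significant decrease of HAMP by qPCR, run on the RNA samples that were sequenced. In liver cancer tissues from TCGA it reports a significant negative correlation of HAMP with PAIP1, opposite to the direction after knockdown. The HAMP gene lies at chr19:35280716-35285143 (+) in GENCODE, and its mRNA is short, at 406 bases with a coding sequence of 255 bases.

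The genes whose log2 CPM followed HAMP most closely over the 6 libraries, among 13198 genes with a mean of at least 1 CPM, were SULT2B1, a sulfotransferase of sterols, with a Pearson r of 0.999, LIMA1, an actin-binding protein, with 0.999, and IL1RAP, a subunit of the interleukin-1 receptor, with 0.998. SULT2B1 stood at 5.60, 5.19 and 6.69 CPM in Ctrl and at 0.874, 0.572 and 0.630 CPM in siPAIP1. Such values describe 2 groups of 3 libraries that share the contrast, and carry no test.

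The promoter of HAMP is printed because it is where the BMP-SMAD and STAT3 inputs are known to meet. It is given as the 250 bases before the start in RefSeq (GRCh38.p14), chr19:35282278-35282527 (+), with matches to GGCGCC, the core of BMP-responsive elements, and to TTCNNNGAA, the letters bound by STAT proteins, in capitals. Both words read the same on both strands and do not overlap.
HAMP promoter: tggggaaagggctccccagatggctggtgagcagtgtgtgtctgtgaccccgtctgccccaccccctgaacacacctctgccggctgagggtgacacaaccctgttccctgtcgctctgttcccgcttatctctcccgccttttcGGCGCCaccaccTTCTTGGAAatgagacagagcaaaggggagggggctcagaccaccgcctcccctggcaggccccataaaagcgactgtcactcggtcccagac
GGCGCC stood at bases -105 to -100 and TTCTTGGAA at -93 to -85, counted from -1 just before the start. Of 35116 promoter windows of this length, 16.4% held GGCGCC, 6.57% held TTCNNNGAA and 0.538% held both. The table had windows for 7 of the 10 genes, 11 windows in all, leaving FTH1, TFR2 and TMPRSS6 without one. GGCGCC also occurred in windows of TF and TFRC, and among the 11 windows TTCNNNGAA occurred in that of HAMP alone.

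The genes through which hepatocytes control HAMP were expressed at a low level, and none of the 3 was called. TMPRSS6, or matriptase-2, cleaves hemojuvelin and so lowers HAMP. It stood at 0.60, 0.36 and 0.41 FPKM in Ctrl replicates 1 to 3 and at 0.29, 0.22 and 0.30 FPKM in siPAIP1 replicates 1 to 3, resting on 30 to 84 counts per library. The groups did not overlap, but the spread within Ctrl was wide, and the log2 fold change of -0.80 (SE 0.26, 95% interval -1.41 to -0.19) had an adjusted p of 0.094 by edgeR. Without siPAIP1 replicate 3 it was -0.93 with an adjusted p of 0.020.

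TFR2, the second transferrin receptor, which senses iron-laden transferrin, stood at 1.44, 1.70 and 1.21 FPKM in Ctrl and 0.98, 1.17 and 1.15 FPKM in siPAIP1. In CPM the groups overlapped, since Ctrl replicate 3 at 4.17 CPM lay below siPAIP1 replicate 3 at 4.21 CPM. Its log2 fold change was -0.42 (SE 0.17, 95% interval -0.83 to -0.02, adjusted p = 0.16), and without siPAIP1 replicate 3 it was -0.51 with an adjusted p of 0.032. HFE, the protein altered in the common form of hereditary hemochromatosis, stood at 1.28, 1.33 and 1.36 FPKM in Ctrl and 1.23, 0.94 and 1.19 FPKM in siPAIP1. The Ctrl libraries were close together, and 2 of the 3 siPAIP1 libraries lay just below them. The log2 fold change of HFE was -0.27 (SE 0.14, 95% interval -0.60 to 0.06, adjusted p = 0.25), and -0.37 with an adjusted p of 0.046 without siPAIP1 replicate 3. These intervals leave room for falls to well under the Ctrl level as well as for little or no change.

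SLC40A1 (ferroportin), the only known exporter of iron and the target of hepcidin, was the other gene to fall by at least 2-fold. Its level was 67.44, 62.04 and 71.58 FPKM in Ctrl replicates 1 to 3 and 34.34, 34.37 and 25.83 FPKM in siPAIP1 replicates 1 to 3. All siPAIP1 libraries were low, with replicate 3 the lowest. The mean went from 257 ± 15.1 CPM (SD, n = 3) to 118 ± 12.5 CPM (SD, n = 3), or 46.0% of Ctrl, with a log2 fold change of -1.12 (SE 0.098, 95% interval -1.35 to -0.89, adjusted p = 0.0017 by edgeR). It was -1.17 to -1.04 with 1 library left out and was called under all 16 alternatives, and 161 of the genes tested had a lower value. The mRNAs of the hormone and of the exporter it acts on thus both fell.

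The ferritin chains fell together. FTL, the light chain, which helps form the mineral core, stood at 7988.25, 7206.82 and 8440.92 FPKM in Ctrl and at 5347.46, 5027.97 and 4224.50 FPKM in siPAIP1. FTH1, the heavy chain, which oxidizes iron for storage, stood at 1798.37, 1728.29 and 1796.62 FPKM in Ctrl and at 1471.51, 1395.74 and 1104.70 FPKM in siPAIP1. For both chains the groups were apart and siPAIP1 replicate 3 was the lowest library. The log2 fold change of FTL was -0.73 (SE 0.093, 95% interval -0.94 to -0.51, adjusted p = 0.0050), or 60.5% of Ctrl, and that of FTH1 was -0.45 (SE 0.091, 95% interval -0.67 to -0.24, adjusted p = 0.021), or 73.0% of Ctrl.

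The call of FTH1 was lost without Ctrl replicate 1 (-0.45, adjusted p = 0.092), Ctrl replicate 2 (-0.47, adjusted p = 0.060), Ctrl replicate 3 (-0.46, adjusted p = 0.090) or siPAIP1 replicate 2 (-0.47, adjusted p = 0.083), while the size of its change moved little, and it held at -0.38 without siPAIP1 replicate 3 (adjusted p = 0.0042). It was also lost with the replicate number as a block (-0.46, adjusted p = 0.057) and with limma on FPKM at either pseudocount (-0.43, adjusted p = 0.13 and 0.14). The call of FTL was lost with limma on FPKM (-0.70, adjusted p = 0.073 and 0.089) and held in the other alternatives. Both ferritin genes have many processed pseudogenes with like sequence. Adding the counts of those pseudogenes to the genes gave log2 fold changes of -0.73 for FTL and -0.45 for FTH1. The counts hold uniquely mapped fragments only, so this sum cannot show the effect of fragments that map to both a gene and a pseudogene.

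TF, or transferrin, the carrier that hepatocytes secrete into the blood, stood at 484.01, 464.17 and 462.40 FPKM in Ctrl replicates 1 to 3 and at 353.34, 296.18 and 226.06 FPKM in siPAIP1 replicates 1 to 3. The Ctrl libraries were close together and the siPAIP1 libraries spread widely, all of them lower. The mean went from 1555 ± 50.01 CPM (SD, n = 3) to 942 ± 167 CPM (SD, n = 3), with a log2 fold change of -0.72 (SE 0.13, 95% interval -1.02 to -0.42, adjusted p = 0.014). Its size was like that of ALB, another secreted liver protein, at -0.77 (SE 0.20, adjusted p = 0.045). The call of TF was lost without Ctrl replicate 1 (-0.71, adjusted p = 0.071), Ctrl replicate 2 (-0.73, adjusted p = 0.055), Ctrl replicate 3 (-0.75, adjusted p = 0.067) or siPAIP1 replicate 2 (-0.71, adjusted p = 0.062), and without siPAIP1 replicate 3 the change was -0.61.

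TFRC, the receptor through which cells take up transferrin, was not called in the full comparison or under any of 16 alternatives. It stood at 35.68, 35.18 and 36.31 FPKM in Ctrl and at 36.58, 37.22 and 26.60 FPKM in siPAIP1. In FPKM siPAIP1 replicates 1 and 2 lay above every Ctrl library and replicate 3 below, whereas in CPM all 3 lay below, at 207, 209 and 165 CPM against 211 to 212 CPM. The log2 fold change was -0.13 (SE 0.10, 95% interval -0.36 to 0.11, adjusted p = 0.43), and -0.03 without siPAIP1 replicate 3. The lower end of this interval is a smaller fall than the fitted value of each of the 6 genes called.

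SLC11A2 (DMT1), which moves ferrous iron across the membranes of endosomes and of the gut, stood at 6.98, 7.33 and 6.95 FPKM in Ctrl and at 6.01, 6.16 and 4.44 FPKM in siPAIP1. The groups were apart, by a narrow gap. The log2 fold change of -0.39 (SE 0.10, 95% interval -0.63 to -0.15) passed the test at an adjusted p of 0.048, just under the threshold. This call was lost under 9 of 16 alternatives, among them those without Ctrl replicate 1 (-0.41, adjusted p = 0.15), Ctrl replicate 2 (-0.36, adjusted p = 0.14), Ctrl replicate 3 (-0.42, adjusted p = 0.14), siPAIP1 replicate 1 (-0.44, adjusted p = 0.071) or siPAIP1 replicate 2 (-0.45, adjusted p = 0.084), and without siPAIP1 replicate 3 the change was -0.30. The others were the replicate block (-0.40, adjusted p = 0.071), upper-quartile scaling (-0.39, adjusted p = 0.074) and limma on FPKM at either pseudocount (adjusted p = 0.15 and 0.14).

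**Figure D4:**
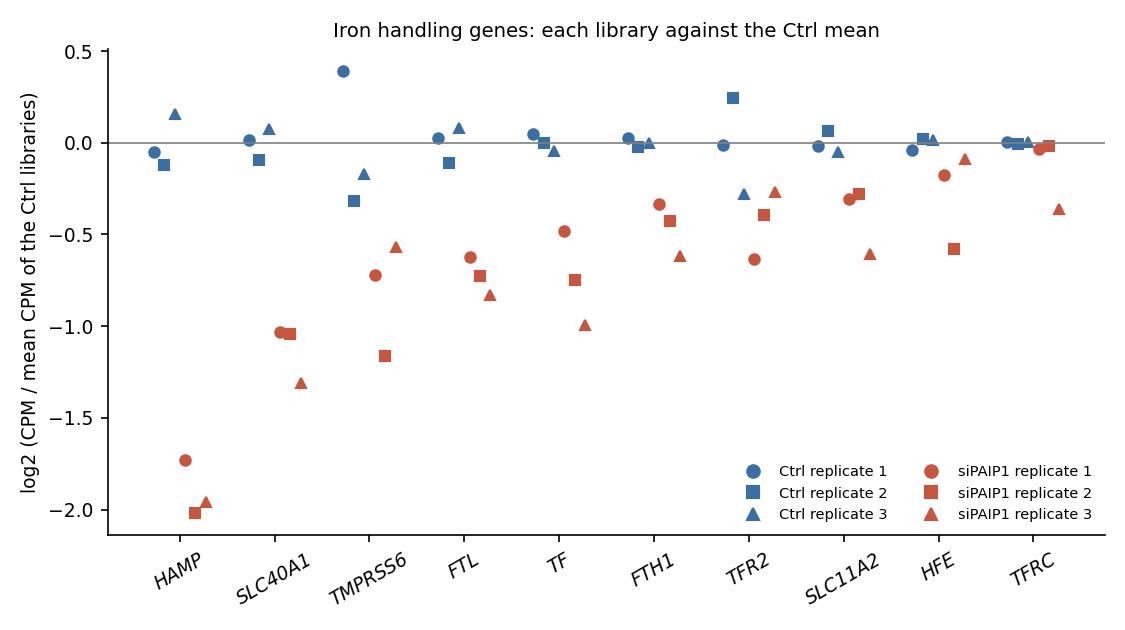
Each library's CPM against the mean of the Ctrl libraries, on a log2 axis where 0 is the Ctrl mean, for the 10 genes (blue, Ctrl; red, siPAIP1; the symbol gives the replicate). HAMP and SLC40A1 lie more than 1 below 0 in all siPAIP1 libraries, and siPAIP1 replicate 3 is the lowest library for SLC40A1, FTL, TF, FTH1, SLC11A2 and TFRC but not for HAMP, TMPRSS6, TFR2 or HFE.

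Read by hairpin position, the 3 of the 10 genes with a match before the coding sequence fell by 0.45 to 1.12 on the log2 scale, and TFRC, with its 4 matches after it, was not called. The hairpin matches are a description of sequence, and no binding of iron regulatory proteins was measured. The siRNA was compared with the mRNAs of the same 10 genes. Its strands are printed with the seed of the antisense strand, bases 2 to 8, in capitals, and with the overhang of the sense strand in capitals as the study lists it.
siRNA3 sense: gauccauacuuggaugauaTT
siRNA3 antisense: uAUCAUCCaaguauggauctt
The 19-base target occurred in no mRNA of the 10 genes. The seed match GGATGAT, present in 7.84% of 19218 3′ UTRs, occurred once in HFE and in no other of them.

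Other genes of the pathway were followed in 4 lists. Of the BMP-SMAD arm, 22 genes were tested, 1 rose and 3 fell, with a median log2 fold change of -0.21. The share called in either direction was 18.2%, against 11.9% over all genes tested. ID1 and ID2, inhibitors of differentiation and targets of BMP signals, and ATOH8, a transcription factor known to respond to iron and to act on HAMP, were the genes that fell. ID2 stood at 246 ± 21.5 CPM in Ctrl and 121 ± 13.2 CPM in siPAIP1 (SD, n = 3 each; log2 fold change -1.02, adjusted p = 0.0028). ID1 changed by -0.51 (adjusted p = 0.015) and ATOH8 by -0.87 (adjusted p = 0.016), and both calls were lost without some single libraries, Ctrl replicate 1 giving -0.54 (adjusted p = 0.068) for ID1 and -0.96 (adjusted p = 0.053) for ATOH8. ID1 was also lost without Ctrl replicate 3 (-0.43, adjusted p = 0.067) or siPAIP1 replicate 2 (-0.51, adjusted p = 0.070), and ATOH8 without Ctrl replicate 2 (-0.94, adjusted p = 0.051) or Ctrl replicate 3 (-0.74, adjusted p = 0.068). The replicate block (-0.50, adjusted p = 0.056) and limma on FPKM (-0.48, adjusted p = 0.058 and 0.055) also ended the call of ID1.

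The receptor BMPR2 rose, from 26.9 ± 0.116 CPM to 40.4 ± 2.40 CPM (SD, n = 3 each; log2 fold change 0.59, adjusted p = 0.0051). SMAD7, a feedback inhibitor and target of the pathway, was at -0.29 (adjusted p = 0.066), and was called without siPAIP1 replicate 3 (-0.28, adjusted p = 0.017). BMP2, GREM1 and HJV (hemojuvelin), listed under its older symbol HFE2, had too few counts to be tested, with 0 or 1 count of HJV per library. The 3 genes that fell and the receptor that rose thus differed in direction. Of the 22 tested genes of this list, 19 (86.4%) had a log2 fold change below 0, against 45.1% of all genes tested. At an unadjusted p under 0.05 by edgeR, 1 of them was higher and 9 were lower. Such p-values were common: 4075 of all 15528 genes tested had one below the 0.0417 of TFR2, in either direction.

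A list of IL-6 and STAT3 signaling together with other regulators of HAMP had 13 tested genes, with a median of -0.16. Among the 13, 2 rose and 4 fell, or 46.2% called in either direction, against 11.9% over all genes tested. Of these 6, STAT3, which rose, and IL6ST, which fell, belong to IL-6 signaling itself. STAT3, its transcription factor, rose from 101 ± 2.61 CPM to 153 ± 17.9 CPM (SD, n = 3 each; log2 fold change 0.60, adjusted p = 0.0094), and INHBB, whose product activin B can raise HAMP, by 0.85 (adjusted p = 0.012). Both of these calls were lost without Ctrl replicate 1, with values of 0.58 (adjusted p = 0.062) for STAT3 and 0.74 (adjusted p = 0.061) for INHBB, that of STAT3 also without Ctrl replicate 3 (0.58, adjusted p = 0.064) and that of INHBB without Ctrl replicate 2 (0.82, adjusted p = 0.060). The named genes that fell were CREB3L3, or CREBH, a liver transcription factor that acts on the HAMP promoter (-1.18, adjusted p = 0.0030), CEBPA, a factor that liver HAMP expression needs (-0.63, adjusted p = 0.0044), and GDF15, a secreted factor proposed to restrain hepcidin (-0.72, adjusted p = 0.0032). CREB3L3 stood at 18.5 ± 1.20 CPM in Ctrl and 8.18 ± 1.28 CPM in siPAIP1 (SD, n = 3 each), with no overlap. The remaining gene that fell was IL6ST, the signaling subunit of the IL-6 receptor, at -0.36 (adjusted p = 0.022), and SOCS3, a target of STAT3, was at -1.10 without a call. IL6ST and SOCS3 were named after their values were seen. IL6 itself had 1 count in all 6 libraries together and was not tested.

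Of 30 other genes of iron and heme transport tested, 0 rose and 6 fell, with a median of -0.11. At an unadjusted p under 0.05 by edgeR, 2 were higher and 11 lower, where 4075 of all 15528 genes tested had a p below 0.0417. The 6 called were 20% of those tested, against 6.2% called lower over all genes tested. The largest falls among them were of HP, or haptoglobin, which binds free hemoglobin (-1.41, adjusted p = 0.011), SLC48A1, which moves heme out of endosomes (-1.31, adjusted p = 0.00092), and HMOX1, which breaks heme down and releases its iron (-0.96, adjusted p = 0.0018). SLC48A1 went from 70.4 ± 5.68 CPM to 28.4 ± 2.15 CPM and HMOX1 from 136 ± 6.73 CPM to 69.5 ± 6.41 CPM (SD, n = 3 each), and neither gene's groups overlapped. SLC39A14 (ZIP14), an importer of iron not bound to transferrin, changed by -0.59 (adjusted p = 0.0048), and ABCG2, an exporter that can carry porphyrins, by -0.39 (adjusted p = 0.033). The call of HP was lost without Ctrl replicate 1 (-1.37, adjusted p = 0.059) or Ctrl replicate 3 (-1.47, adjusted p = 0.054), and that of ABCG2 without any single library other than siPAIP1 replicate 3, at -0.45 to -0.38 with an adjusted p of 0.067 to 0.13. ABCG2 was also lost with the replicate block (adjusted p = 0.089), upper-quartile scaling (adjusted p = 0.052) and limma on FPKM (adjusted p = 0.13 at either pseudocount). The sixth gene was FLVCR1, an exporter of heme (-0.37, adjusted p = 0.047), named after its values were seen. The iron regulatory proteins ACO1 and IREB2, named for their link to the hairpins, were at -0.14 and -0.02 and were not called.

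Of 29 genes of heme and iron-sulfur cluster synthesis tested, 0 rose and 2 fell, with a median of -0.06. This share of 6.9% called lower is close to the 6.2% over all genes tested. At an unadjusted p under 0.05 by edgeR, 2 of the 29 were higher and 7 lower. This is near the share over all 15528 genes tested, of which 4075 had a p below 0.0417 in either direction. The 2 genes called lower were GLRX5, which passes on iron-sulfur clusters in mitochondria (-0.47, adjusted p = 0.012), and ALAS1, the rate-limiting enzyme of heme synthesis in liver (-0.39, adjusted p = 0.035). CPOX at -0.24 (adjusted p = 0.062) and PPOX at 0.31 (adjusted p = 0.065), which follow each other in heme synthesis, and ISCU at -0.27 (adjusted p = 0.072), the scaffold for the clusters, were not called. The call of GLRX5 was lost without Ctrl replicate 1 (-0.44, adjusted p = 0.067) or Ctrl replicate 3 (-0.48, adjusted p = 0.065), and that of ALAS1 without any single library other than siPAIP1 replicate 3, at -0.45 to -0.38 with an adjusted p of 0.051 to 0.14. ALAS1 was also lost with the replicate block (adjusted p = 0.075), upper-quartile scaling (adjusted p = 0.058) and limma on FPKM (adjusted p = 0.11 at either pseudocount). Without siPAIP1 replicate 3, CPOX (-0.23, adjusted p = 0.024), PPOX (0.29, adjusted p = 0.047) and ISCU (-0.22, adjusted p = 0.028) were called. Over the 4 lists, 15 genes were called lower and 3 higher by edgeR, and as many by DESeq2. These counts were 7 and 1 without Ctrl replicate 1, 10 and 2 without Ctrl replicate 2, 7 and 2 without Ctrl replicate 3, 10 and 3 without siPAIP1 replicate 2, and 31 and 9 without siPAIP1 replicate 3. Calls over the whole table moved as well, from 963 lower and 882 higher with all libraries to 290 and 187 without Ctrl replicate 1.

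**Figure D5:**
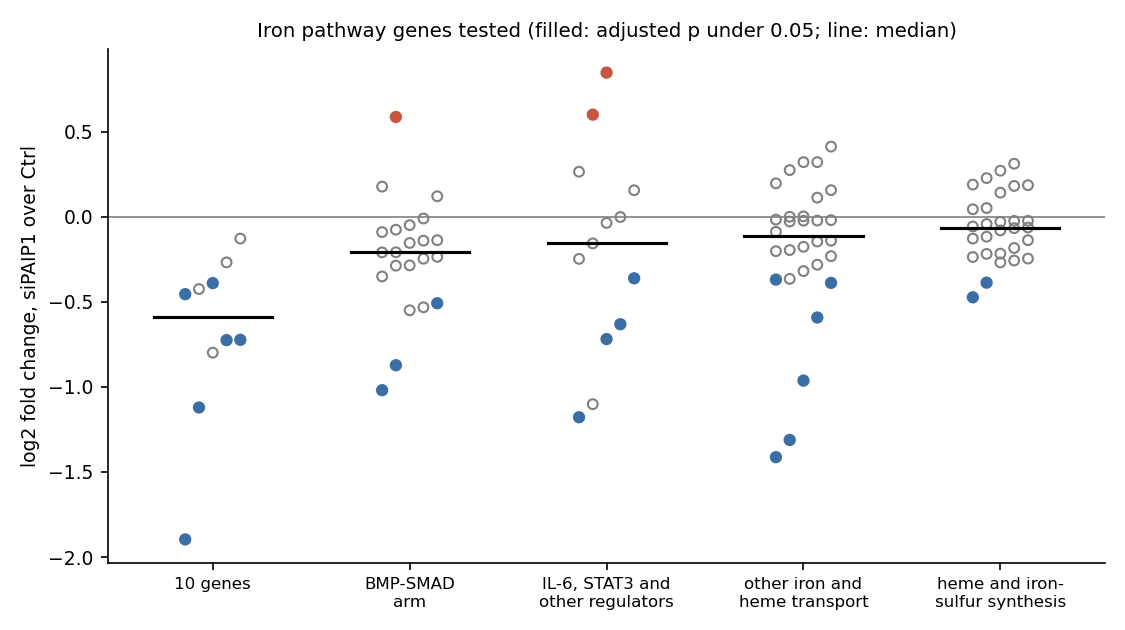
Fitted log2 fold change of siPAIP1 over Ctrl for the 10 genes and the tested genes of 4 pathway lists, each point 1 gene (filled blue, lower at an adjusted p under 0.05; filled red, higher; open, not called) and each line the median of its list. The 10 genes have a median of -0.59 and lie below 0 throughout, whereas the 4 lists lie on both sides of 0, with medians of -0.21 to -0.06; the liver markers, not drawn, had a median of -0.45.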

How the data were processed

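Poly(A) RNA of 6 HepG2 samples was sequenced. The authors trimmed the reads, aligned them to GRCh38 with TopHat2 and deposited counts of uniquely mapped fragments per gene and FPKM values with 2 decimals. Per the labels, bcl2fastq and edgeR were also used. The tool that counted, whether it used strand, and which annotation it read were not given in the sources used here, and overlapping or antisense genes are therefore uncertain. Groups were taken from the treatment labels.

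Deposited counts were fitted in R 4.3.3 with edgeR 4.0.16 (TMM factors, filterByExpr, which kept 15528 of 30987 genes, glmQLFit and glmQLFTest with a term for group). P-values were adjusted by Benjamini-Hochberg over all tested genes. A standard error is the log2 fold change over the root of its F. P-values set the difference between the groups against the spread between these libraries, and do not cover variation between siRNAs or cell lines. The median biological coefficient of variation was 12.4%, and the script was tested on simulated data. There it recovered 9.5% of changes of 1.5-fold, 69.5% of 2-fold and 91% of 4-fold. The lack of a call therefore does not show the lack of a change of 1.5-fold or less. FPKM values as deposited served for levels. The members and lists were chosen with earlier results of these data known. Named genes are the 10 genes, PAIP1, up to 5 tested genes with the lowest adjusted p per list, and the 3 genes most like HAMP. No adjustment over a list alone was made. Some results on genes outside the 10 are not reported here. Alternatives used DESeq2 1.42.0, limma 3.58.1 on log2(FPKM + 1) and log2(FPKM + 0.1), other scalings and filters, a replicate block and left-out libraries. Sequences were searched with Python 3.11.15, with pandas 2.3.3 and numpy 2.4.6, and figures drawn with matplotlib 3.10.9.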

Additional observations from a re-analysis of the deposited data

How the results depend on the processing

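Over 16 alternatives, and 1 more that added pseudogene counts for FTL and FTH1, the 10 genes had 162 fitted values, all below 0. Of these, 135 stayed on the same side of the threshold, 22 lost a call and 5 gained one. The number of the 10 genes called lower was 6 in the comparison as reported, 3 with limma on log2(FPKM + 1) or log2(FPKM + 0.1), and 3 to 9 with 1 library left out. Without Ctrl replicate 2 and siPAIP1 replicate 3 together it was 8. FTL lost its call with limma on FPKM (adjusted p = 0.073 and 0.089 at the larger and smaller pseudocount). The cause was not tested.

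The genes called higher and lower over the whole table, 882 and 963 as reported, ranged from 187 to 1857 and from 269 to 1952 with 1 library left out, and were 2363 and 2552 without Ctrl replicate 2 and siPAIP1 replicate 3. The calls that also changed by 2-fold, 173 higher and 171 lower, ranged from 55 to 196 and from 88 to 235, with 231 and 232 without both of those libraries. With limma they were 20 and 30 at a pseudocount of 1 and 115 higher at 0.1, while 588 and 607 genes were called lower, and with no filter on low counts they were 324 higher. The 4 lists had 1 to 9 genes called higher and 7 to 31 lower with 1 library left out, and 11 and 39 without both libraries.

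Same-numbered libraries correlated at 0.39, -0.44 and -0.20 in their deviations from the group means over 13198 genes. The highest value, 0.51, was between Ctrl replicate 2 and siPAIP1 replicate 3. With 3 libraries per group, deviations from a group mean depend on each other, and siPAIP1 replicate 3 stood apart. These values therefore cannot settle whether the replicate numbers pair the libraries. A fit with the replicate number as a block called 4 of the 10 genes lower and 366 genes higher and 459 lower over the table, 98 of the former by 2-fold. In that fit FTH1 had an adjusted p of 0.057 and SLC11A2 of 0.071. TMPRSS6, TFR2 and HFE, with 30 to 266 counts per library, were not called with all 6 libraries and were called without siPAIP1 replicate 3, and the cause was not tested.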

Other observations

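The hairpin pattern matched the 3′ UTR of 10 genes over all canonical transcripts, TFRC among them. Of these, 8 were tested, and 0 were called in either direction by edgeR, where 0 had an unadjusted p under 0.05. SERBP1, an RNA-binding protein, stood at 55.68, 50.93 and 53.07 FPKM in Ctrl and at 57.96, 56.98 and 47.5 FPKM in siPAIP1, with overlapping groups and a log2 fold change of -0.01 (SE 0.076, adjusted p = 0.97). It was named after its values were seen, as the highest of these genes in FPKM.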
